A study of Mus musculus with 4 samples.

Results

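Ribosomal protein genes encode the proteins of the cytosolic ribosome, and their processed copies, which lack introns, are scattered over the mouse genome as pseudogenes. The genes were chosen by name and by level: a name that begins with Rps, Rpl or Rplp and a digit, the S6 kinase genes (Rps6k) left out, and a level above 0.5 FPKM (fragments counted for a gene, scaled for its length and for the size of the library) in at least 1 library. Names that end in -ps or in -ps and a number, and Rps3a2 and Rps3a3, were set apart as pseudogenes. The name rule was met by 381 of 54752 gene identifiers, and 221 of these passed the level, 86 of 90 ribosomal protein genes and 135 of 291 pseudogenes. The pair Rps3a1 and Rps3a3 had been selected on the difference between genotypes described here, so their values are a description and carry no test.

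RNA was measured in epidermis taken from newborn mice (postnatal day 0), with 2 pups of the group labelled Skiv2l ctl (controls) and 2 of the group labelled Skiv2lf/fl;K14-Cre (knockouts), all of strain C57BL/6. The controls comprised fl/fl, fl/+ and fl/+ K14-Cre genotypes in the study, and which one each pup carried was not given, so the Cre transgene and the deletion cannot be told apart where a control lacked Cre. Cre was driven by the keratin 14 promoter, which is active in basal keratinocytes, so cells of other lineages in the epidermal sheet kept the gene, and the knockout pups died within a day of birth. Skiv2l itself read 19.3 and 19.1 FPKM in control pups and 10.8 and 8.55 FPKM in knockout pups, a log2 difference of -0.92 ± 0.13 (SE, adjusted p = 0.0055, limma).

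The ribosome has a small and a large subunit, and most of their proteins are made in equal numbers, so their genes are expressed together at high levels in growing tissue. Many of these mRNAs begin with a C followed by a run of pyrimidines, the 5′ terminal oligopyrimidine tract, through which the mTORC1 pathway and the RNA-binding protein LARP1 regulate their translation. SKIV2L is the RNA helicase of the SKI complex, which feeds mRNA to the cytosolic RNA exosome for 3′ to 5′ decay, including mRNA on which ribosomes have stalled. Pseudogene copies resemble their parents closely, and a short read can then match parent and copy alike.

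The first set of sequences shows how alike Rps3a1 and its copies are. Each line gives bases 201 to 280 of the reading frame, counted from 1 at the A of the start codon of Rps3a1, from the GENCODE M21 transcripts. Capitals mark the positions at which the copies differ from Rps3a1 or from each other.
Rps3a1: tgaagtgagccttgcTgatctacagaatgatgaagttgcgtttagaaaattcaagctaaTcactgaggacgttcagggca
Rps3a2: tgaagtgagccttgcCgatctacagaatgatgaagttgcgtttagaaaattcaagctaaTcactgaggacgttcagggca
Rps3a3: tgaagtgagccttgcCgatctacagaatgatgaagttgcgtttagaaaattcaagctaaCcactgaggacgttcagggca

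In GRCm38 the Rps3a2 stretch lies at chr14:88123529-88123608 on the minus strand and the Rps3a3 stretch at chr13:108670803-108670882 on the plus strand. Rps3a1 itself spans chr3:86137940-86142702 on the minus strand and is spliced. Over the reading frame, Rps3a2 differed from Rps3a1 at 4 of 792 bases (99.5% identity) and Rps3a3 at 9 of 795 (98.9%). Both copies carried T216C and T534C, Rps3a2 alone carried A645T and T668C, and Rps3a3 alone carried T260C, C363T, A427T, G582T, A660G, C762T and G792A. The longest run without a difference from Rps3a1 was 317 bases in Rps3a2 and 215 bases in Rps3a3. A read of 75 bases that lies within such a run cannot be told from one of Rps3a1.

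The second set shows the sequence around the annotated start of the 5 ribosomal protein genes that passed the test below and were in the promoter table, and of Rps3a1 and Rplp2, the genes of the subunits and the stalk with the lowest and the highest difference. Each line holds 10 bases before and 20 bases from the RefSeq start (GRCm38.p6), and capitals mark tracts of a C and at least 5 further bases that are C or T, on the strand of the gene only.
Rps9: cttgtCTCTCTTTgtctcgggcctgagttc
Rps13: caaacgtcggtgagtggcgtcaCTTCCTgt
Rps15a: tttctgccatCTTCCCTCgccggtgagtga
Rpl39: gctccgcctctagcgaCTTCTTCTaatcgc
Rps27l: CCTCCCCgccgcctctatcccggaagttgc
Rps3a1: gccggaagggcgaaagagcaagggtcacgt
Rplp2: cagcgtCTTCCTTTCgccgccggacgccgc

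These windows are chr7:3704031-3704060 (plus strand) for Rps9, chr7:116334171-116334200 (minus) for Rps13, chr7:118116128-118116157 (minus) for Rps15a and chrX:37085203-37085232 (minus) for Rpl39. For Rps27l the first of its annotated starts is shown, chr9:66946076-66946105 (plus), for Rps3a1 chr3:86142649-86142678 (minus), and for Rplp2 chr7:141447641-141447670 (plus). Of the 86 ribosomal protein genes, 64 were matched to the table by symbol with 75 starts, and 39 of these starts (52%) held such a tract. The share was 22.0% for all 32851 starts in the table and 24% for the 75 starts of genes named for the mitochondrial ribosome. Annotated starts can lie some bases from the true one, so a window without a tract says only that these letters are not in it. A tract was counted anywhere in the window, as before the start in Rps27l, so a window with one does not show that the mRNA begins with it.

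Ribosomal protein genes were expressed at high levels in all 4 libraries. All 86 genes were above 0.5 FPKM in every library, with mean levels from 2.70 FPKM for the retrocopy Rpl32l, the member nearest to the threshold, to 1553 FPKM for Rplp0. Just outside the threshold was Rpl3l, a paralog of Rpl3 known from striated muscle, at 0.0932 FPKM in 1 control and listed at 0 in the other 3 libraries. The summed level of the 86 genes was 31512 and 34522 FPKM in control pups and 28550 and 30382 FPKM in knockout pups, both knockouts below both controls.

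On the TPM scale, on which all transcripts of a library sum to the same total, the ribosomal protein genes took 8.76% and 9.39% in control pups and 7.65% and 8.02% in knockout pups. The means were 9.07% ± 0.45 and 7.83% ± 0.26 (SD, n = 2 pups each), a difference of -1.24 percentage points. An exact permutation test (two-sided) gave p = 0.333, the smallest p that 2 pups against 2 can give. The rest of the transcriptome moved too: the 100 most abundant other genes took 26.9% and 27.2% of TPM in control pups and 32.9% and 34.4% in knockout pups. With these 100 genes left out of the total, the share was 12.0% and 12.9% in control pups and 11.4% and 12.2% in knockout pups, and the genotypes overlapped (exact permutation p = 0.667, two-sided).

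The cell type markers moved with genotype beside this share. The summed FPKM of 6 basal keratinocyte markers was 4640 and 4791 in control pups and 9713 and 9702 in knockout pups, and that of 7 suprabasal markers was 27632 and 28694 against 19541 and 22530. Markers of other lineages were at low sums: 6 fibroblast markers at 61.3 and 69.0 against 21.9 and 25.04 FPKM, 6 leukocyte markers at 25.9 and 35.0 against 14.6 and 13.9, and 5 erythroid markers at 134 and 125 against 62.03 and 80.7. The 5 melanocyte markers summed to 47.5 and 54.4 against 50.6 and 63.5 FPKM, the 5 muscle markers to 3.08 and 2.55 against 1.39 and 1.30, and the 5 endothelial markers, Emcn among them at 0 in every library, to at most 0.750. In bulk RNA, fewer cells of a type and less RNA per cell cannot be told apart, and the part of these shifts in the ribosomal protein levels was not tested.

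Gene by gene, the ribosomal protein genes lay slightly lower in the knockouts. Without further scaling, this was by about as much as the median of all genes tested. Their median log2 difference on the log2(FPKM + 1) scale was -0.18, and that of all 19572 genes tested was -0.17. Many of the tested genes are far less abundant, and for the 354 other genes with a mean above 100 FPKM the median was -0.06. The difference was negative for 78 of the 86 genes, and it ranged from -0.53 for Rps27l to 0.21 for Rplp2. In both knockouts 54 of the 86 genes (62.8%) lay below both controls, against 48.8% of all genes, and 2 genes, Rpl13a and Rpl41, lay above both, against 17.2%. In the limma fit 8 of the 86 genes (9.30%) fell at an adjusted p under 0.05 and 0 rose, where 15.8% of all genes fell and 6.23% rose. Of the 354 other genes with a mean above 100 FPKM, 20.6% fell and 26.6% rose. The 8 genes were Rps27l, Rps3a1, Rps4l, Rpl39, Rps29, Rps9, Rps13 and Rps15a, and 7 remain when Rps3a1, chosen on this contrast, is set aside. None of the 8 passed without control 1 or without control 2, when all genes with a fall also dropped to 186 and 187. Without knockout 1, Rps27l and Rps4l still passed, and without knockout 2, Rpl39 and Rps29.

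**Figure D1:**
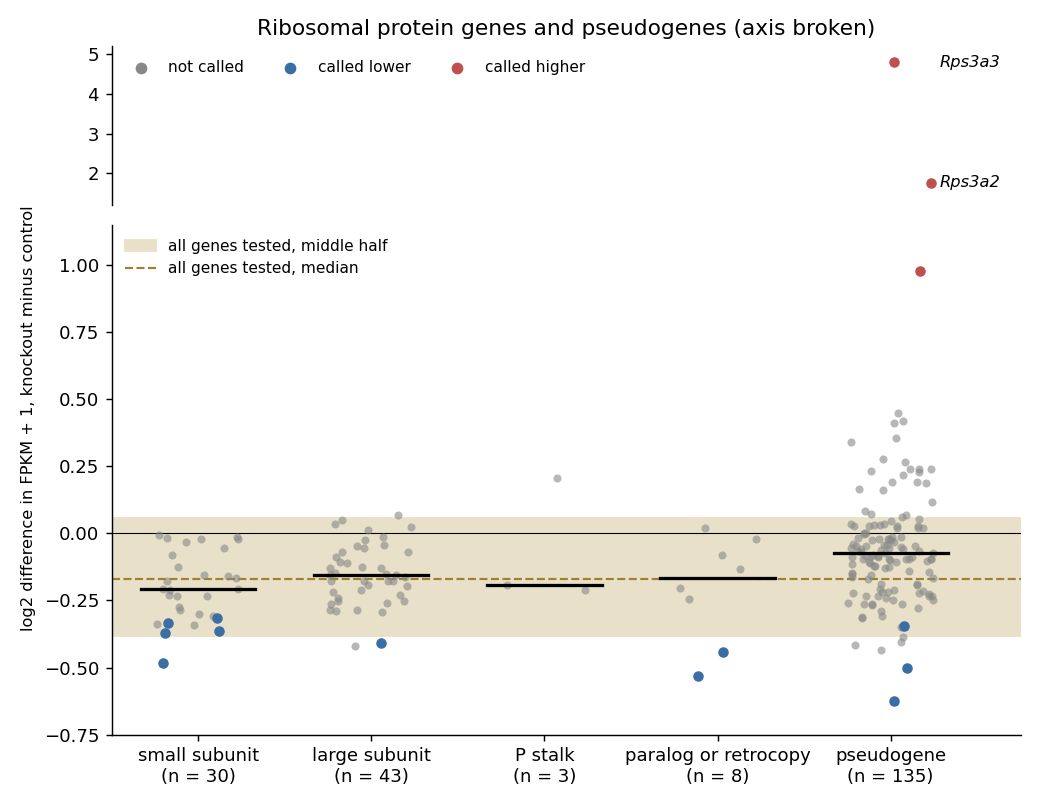
Log2 difference in FPKM + 1 between knockouts and controls (y axis, broken between its lower and upper part) for 84 ribosomal protein genes by role and for 135 pseudogenes, with the names Rpl7l1 and Rps19bp1 left out as no ribosomal proteins. Each point is a gene, coloured by its call, black bars are medians, and the band and dashed line give the interquartile range and the median of all genes tested; the medians of the subunits lie close to the dashed line, and Rps3a3 and Rps3a2 lie far above all other pseudogenes.

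The calls rested on the scaling between libraries. The median log2(FPKM + 1) of the tested genes was 2.23 and 2.24 in control pups and 2.08 and 1.997 in knockout pups. When the libraries were brought to the same median, the median difference of all genes moved from -0.17 to 0.03 and that of the ribosomal protein genes from -0.18 to 0.02. Relative to that shift 49 of the 86 genes were then positive and 37 negative, and 0 passed the test in either direction, where 10.1% of all genes rose and 6.49% fell. Under quantile normalization, by contrast, 32 of the 86 fell and 0 rose, where 9.19% of all genes fell and 8.45% rose. The median of the 86 was then -0.28, against -0.036 for all genes and -0.14 for the other genes with a mean above 100 FPKM. So the match to the median of all genes did not hold on that scaling. No ribosomal protein gene rose under any of these 3 scalings.

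The genes also moved together between pups of the same genotype. Control 2 was above control 1 for 78 of the 86 genes, with a median log2 difference of 0.13, where the median of all genes was 0.01. Knockout 2 was above knockout 1 for 75 of the 86, with a median of 0.09 against -0.06 for all genes. The shift between the pups of a genotype was smaller than that between genotypes but of the same order. Without control 1 the median difference of the ribosomal protein genes was -0.24, and without control 2 it was -0.12.

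**Figure D2:**
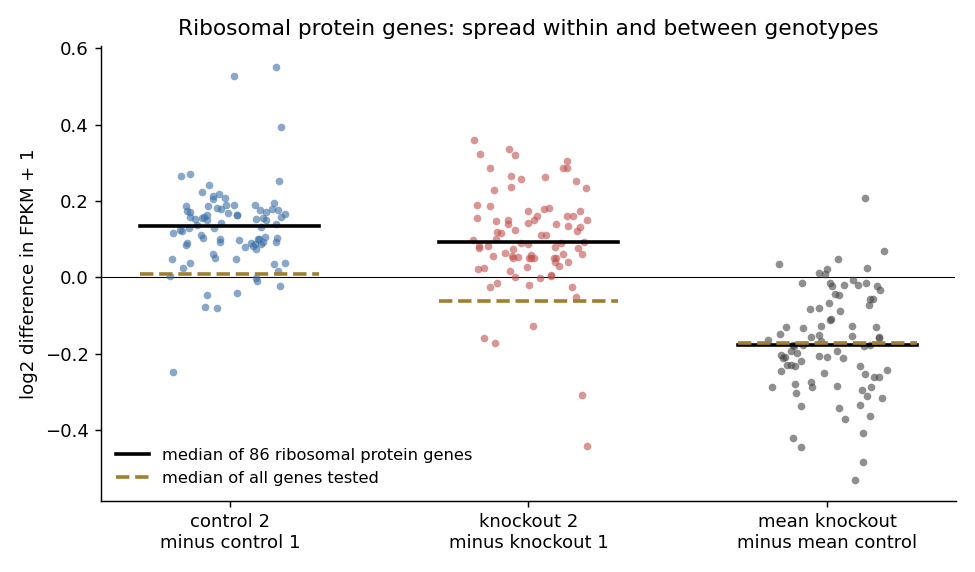
Log2 differences in FPKM + 1 (y axis) of the 86 ribosomal protein genes between the 2 controls, between the 2 knockouts and between the genotype means; each point is a gene, black bars are their medians and dashed bars the medians of all genes tested. The medians within genotype, 0.13 and 0.09, are set off from those of all genes, while the medians between genotypes, -0.18 and -0.17, nearly coincide.

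In the small subunit, 5 of 30 genes fell (16.7%, near the 15.8% of all genes), Rps3a1 among them, none rose, and the median difference was -0.21. Rps29, a small zinc-binding protein of the subunit head, was 122 and 129 FPKM in control pups and 93.1 and 101 FPKM in knockout pups (log2 difference -0.37 ± 0.09, SE, adjusted p = 0.030). Rps9, which takes part in decoding accuracy, was 392 and 433 FPKM against 314 and 326 FPKM (-0.36 ± 0.09, adjusted p = 0.042). Rps13 fell from 216 and 210 to 166 and 172 FPKM, and Rps15a from 110 and 113 to 90.0 and 88.3 FPKM (adjusted p = 0.034 each). In all 4 genes the knockouts lay below both controls, and the gap was larger than the distance between pups of 1 genotype. Rps3a1, the fifth, is described below with its copies.

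Other small subunit genes lay closer to their controls. Rps6, the classical substrate of S6 kinase, was 621 and 708 FPKM in control pups and 604 and 611 in knockout pups, a difference of -0.13 ± 0.11 (adjusted p = 0.42). Rps19, the gene most often mutated in Diamond-Blackfan anaemia, was 377 and 402 against 320 and 353 FPKM (-0.21 ± 0.10, adjusted p = 0.17). For both the knockouts lay below both controls without passing the test. Rps18 was 377 and 402 against 357 and 421 FPKM, and Rps2 was 967 and 1088 against 986 and 951 FPKM, with overlapping genotypes. Rps14, whose loss is known from the 5q- syndrome, was 831 and 886 against 683 and 708 FPKM (-0.30 ± 0.10, adjusted p = 0.080).

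In the large subunit, 1 of 43 genes fell (2.33%, against 15.8%) and none rose, with a median difference of -0.16. That gene was Rpl39, a short protein that lines the exit tunnel for the nascent chain, with 229 and 232 FPKM in control pups and 169 and 178 FPKM in knockout pups (-0.41 ± 0.08, adjusted p = 0.019). The 2 controls differed far less than the genotypes did. Rpl5 and Rpl11, which with 5S rRNA bind and inhibit MDM2 under ribosomal stress, were 260 and 300 against 248 and 252 FPKM and 325 and 346 against 297 and 296 FPKM. Neither passed the test (adjusted p = 0.30 and 0.19), although both knockouts lay below both controls. Rpl13a, often used as a reference gene, was 750.1 and 796 against 797 and 801 FPKM, and Rpl38, known for its part in the translation of Hox mRNAs, was 285 and 323 against 284 and 317 FPKM.

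The 3 stalk proteins, which recruit translation factors to the large subunit, did not pass the test. Rplp0, the most abundant member, was 1568 and 1748 FPKM in control pups and 1458 and 1439 FPKM in knockout pups (-0.19 ± 0.12, adjusted p = 0.29), and Rplp1 was 911 and 1010 against 791 and 867 FPKM. Rplp2 was 159 and 230 FPKM in control pups and 222 and 219 FPKM in knockout pups, so both knockouts lay between the controls and the positive difference of 0.21 rested on control 1.

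Among the 8 paralogs and retrocopies, 2 fell (25%, against 15.8% of all genes) and 0 rose, a small set in which 1 gene moves the share widely. Rps27l, a paralog of Rps27 and a known p53 target, was 17.4 and 20.8 FPKM in control pups and 13.7 and 12.1 FPKM in knockout pups (-0.53 ± 0.12, adjusted p = 0.029). Rps4l, named like a gene but annotated as a transcribed processed pseudogene, was 44.4 and 47.7 against 37.4 and 30.1 FPKM (-0.44 ± 0.12, adjusted p = 0.047). Rpl22l1, the paralog of Rpl22, was 14.8 and 16.3 against 13.4 and 17.5 FPKM, and Rpl36al 87.5 and 94.0 against 76.3 and 89.6 FPKM, both with overlapping genotypes. Rps19bp1 and Rpl7l1, which share the letters of the name but are not ribosomal proteins, did not pass the test.

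**Figure D3:**
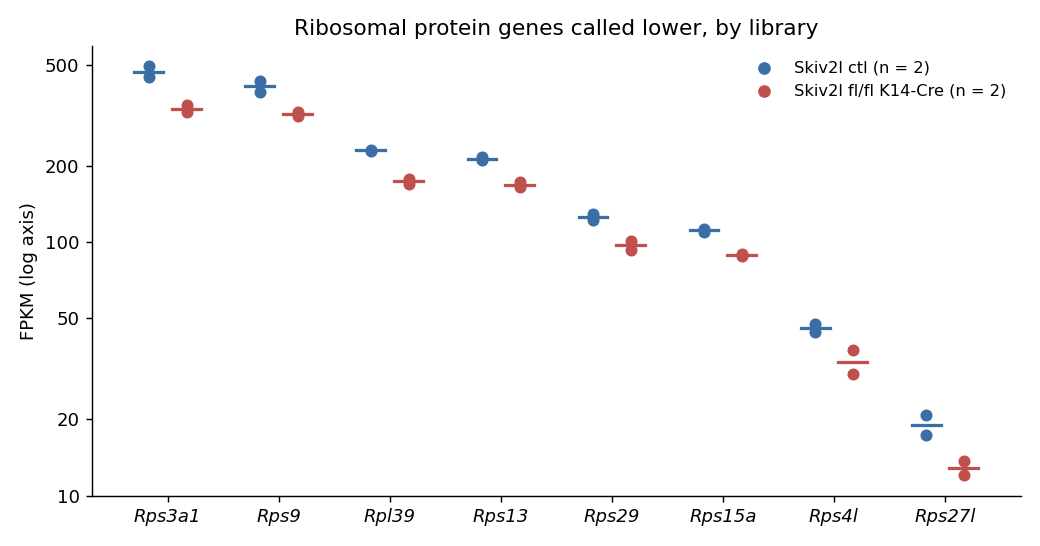
FPKM (y axis, log scale) of the 8 ribosomal protein genes called lower, with 1 point per library and a bar at the mean of the 2 pups of each genotype. In each gene both knockouts lie below both controls, and the 3 most abundant are Rps3a1, Rps9 and Rpl39; Rps3a1 was chosen for its difference.

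The medians of genes with and without a tract anywhere in the start window can be set side by side, which does not sort the mRNAs by how they begin. The 37 genes with a tract in at least 1 start window had a median difference of -0.16, and 5 of them fell, close to the 15.8% of all genes. The 27 genes without one had a median of -0.19, and 0 of them passed once Rps3a1, chosen on this contrast, was set aside. The 22 genes without a window used here had a median of -0.19, and 2 of them, Rps29 and Rps4l, fell, a share below the 15.8% of all genes. The difference between these medians was not tested.

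Rps3a1 encodes a small subunit protein (eS1) at the platform, near the mRNA exit, and its level is given here with those of its pseudogenes. Rps3a1 was 448 and 494 FPKM in control pups and 326 and 347 FPKM in knockout pups, means of 471 ± 32.2 and 336 ± 14.8 (SD, n = 2 each). Rps3a3, a processed pseudogene at chr13:108670603-108671397, was 2.37 and 2.41 FPKM in control pups and 91.5 and 94.1 FPKM in knockout pups, means of 2.39 ± 0.03 and 92.8 ± 1.83. On the log2(FPKM + 1) scale these are differences of -0.48 for Rps3a1 and 4.79 for Rps3a3, both given without a test because this contrast chose them. Within each genotype the 2 pups nearly coincided for Rps3a3, and the genotypes did not overlap for either gene.

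Other copies of Rps3a1 stood higher in the knockouts as well. Rps3a2, at chr14:88123017-88123808, was 10.1 and 12.6 FPKM in control pups and 39.4 and 42.5 in knockout pups, and Gm5586, at chr7:16719116-16719910, was 1.86 and 2.28 against 8.62 and 9.04. Gm13408, with more shared sequence than Rps3a3, moved less, from 3.18 and 3.49 to 4.03 and 3.85 FPKM, and Gm7600 was 0.526 and 0.551 against 0.819 and 0.653. Gm8960 lay between 0.427 and 0.720 FPKM in all libraries, and Gm13935 was at most 0.0680. So the copies were not raised in proportion to one another.

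The sums of gene and copies lay close together in the genotypes. Rps3a1, Rps3a2 and Rps3a3 together gave 461 and 509 FPKM in control pups and 457 and 483 in knockout pups, means of 485 ± 33.9 and 470.1 ± 18.9 (SD, n = 2), and the genotypes overlapped. With all 7 copies the sums were 467 and 516 against 471 and 498 FPKM. Weighted by transcript length, which turns FPKM into fragments, the 3 genes gave 448 and 495 against 422 and 447, both knockouts then below both controls by a narrow margin. Within the sum of the 3 genes, the share of Rps3a3 was 0.514% and 0.473% in control pups and 20.03% and 19.5% in knockout pups, and that of Rps3a1 was 97.3% and 97.0% against 71.4% and 71.7%.

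How far reads can separate these genes depends on their sequence and on the length and pairing of the reads. The paper does not state these for the mouse libraries, so the 75 bases used here are an assumed length, and the shares hold for that length only. Of the 903 different stretches of 75 bases in the Rps3a1 transcripts, 60.2% occur also in another gene: 52.0% in Rps3a2, 30.2% in Gm13408, 28.7% in Gm5586 and 25.6% in Rps3a3. In Rps3a3 45.4% of stretches occur in another gene, so the rest carry at least 1 base that tells it apart, and in Rps3a2 86.4% occur elsewhere. The FPKM values do not say which reads were counted for which copy, and the reads were not used here.

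No annotated gene beside Rps3a3 or Rps3a2 rose. Rps3a3 lies in an intron of Pde4d, a cyclic AMP phosphodiesterase, on the same strand, and Pde4d was 10.7 and 10.3 FPKM in control pups and 6.41 and 7.95 in knockout pups (log2 difference -0.50 ± 0.13, adjusted p = 0.039). The 2 annotated genes within 100000 bases of Rps3a2 were listed at 0 in every library. Beside Rps3a1, the neighbour Sh3d19 fell from 94.3 and 88.0 to 58.6 and 53.1 FPKM (-0.70 ± 0.09, adjusted p = 0.0047), while Lrba was 14.5 and 14.6 against 14.4 and 13.5. Snord73a, a small nucleolar RNA encoded in an intron of Rps3a1, was 1.27 and 1.22 FPKM against 0.196 and 0.404 (-0.79 ± 0.16), at low levels throughout. Snord73a passed the level only through the controls, where it is high, so its difference is a description without a test. Gm5586 differs in this: Slc1a5, a glutamine transporter gene 61430 bases away, rose from 3.97 and 4.73 to 9.003 and 7.16 FPKM (0.76 ± 0.15, adjusted p = 0.018). These neighbours were picked with their values in view.

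Few other pseudogenes passed the test. Over the 135 pseudogenes that passed the level, the median log2 difference was -0.07, 3 rose (2.22%, against 6.23% of all genes) and 3 fell (2.22%, against 15.8%). Without Rps3a3, chosen on this contrast, and its family member Rps3a2, 1 of 133 (0.752%) rose. The sign of the median turned with the scaling: it was 0.13 with equal medians, with 102 of the 135 positive, and 0.07 under quantile normalization. Since 9 of the 135 passed only through a control and 8 only through a knockout, these counts describe the pseudogenes that passed and not all 291. Of the rest, 50 were listed at 0 in all libraries. The pseudogenes just inside and just outside the threshold were Rps12-ps16, at most 0.502 FPKM, and Rpl27-ps1, at most 0.49989 FPKM. Their summed share of TPM was 0.260% and 0.278% in the controls and 0.272% in both knockouts. Without Rps3a2 and Rps3a3 their summed FPKM was 922 and 1009 against 884 and 894.

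Levels of most pseudogenes were low, and sequence shared with other genes was the rule. The mean FPKM was under 1 for 41 of the 135 and above 10 for 25. The median pseudogene had 58.4% of its 75-base stretches in another gene, against 16.8% for the median ribosomal protein gene. The most abundant, Rps6-ps4, was 80.9 and 94.1 FPKM in control pups and 80.4 and 81.4 in knockout pups, and every stretch of it occurs elsewhere. The same holds for Rpl10a-ps1 with 55.7 and 64.7 against 57.2 and 59.0 FPKM. Rpl10-ps3, annotated as protein-coding despite its name, was 38.7 and 42.2 against 43.4 and 39.7 FPKM.

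The 3 pseudogenes that fell were Rplp0-ps1, Rpl15-ps3 and Rpl9-ps3. Rplp0-ps1 was 56.9 and 58.0 FPKM in control pups and 43.6 and 37.2 in knockout pups (-0.50 ± 0.10, adjusted p = 0.019), with 13.7% of its stretches shared. Rpl15-ps3 was 66.5 and 73.4 against 55.4 and 54.1 FPKM (-0.35 ± 0.09, adjusted p = 0.036), with all of its stretches shared. Rpl9-ps3, close to the level threshold, was 1.199 and 1.05 against 0.518 and 0.250 FPKM. When the libraries were brought to the same median none of these 3 passed the test (adjusted p from 0.071 to 0.32), nor did any of them or Rpl10a-ps2 pass without control 1 or without control 2. Beside Rps3a3 and Rps3a2, the pseudogene that rose was Rpl10a-ps2, with 0.0527 and 0.0243 FPKM in control pups and 0.784 and 1.34 in knockout pups (0.98 ± 0.19, adjusted p = 0.017), a low level in sequence that is 3.52% shared. Rpl10a-ps2 passed the level only through the knockouts, where it is high, so its difference is a description and its p no support.

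The pseudogenes were also set against their parents. In each of 46 families the FPKM of the pseudogenes was taken as a share of parent and pseudogenes together. For Rps3a1, chosen for its difference, the mean share was 2.83% in the controls and 28.4% in the knockouts, a ratio of 10.04. Over the other 45 families the ratio ran from 0.597 for Rps18 to 1.79 for Rpl26, with a median of 0.998, and the extremes were families whose share was under 0.2%. The share was higher in both knockouts than in both controls in 9 of the 45 families, lower in 8 and overlapping in 28. With 2 pups per genotype such an order often arises without any difference between genotypes, and these counts were not tested. In percentage points, the largest rise among them was 1.87 for Rpl36a, from 22.1% to 24.0%.

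**Figure D4:**
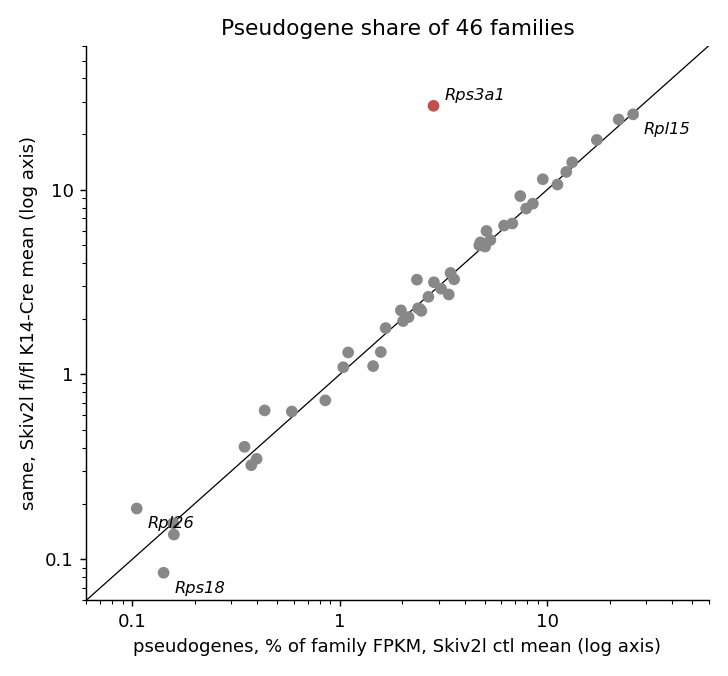
Share of the family FPKM that lies in pseudogenes, in percent, as the mean of the 2 controls (x axis) and of the 2 knockouts (y axis), both on log scales; each point is 1 of 46 families and the line marks equal shares. The other families lie along the line, with a median ratio of 0.998, and the Rps3a1 family lies above it at 2.83% and 28.4%.

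The rest of the translation machinery was read from lists for the same contrast. The 4 cytosolic ribosomal proteins outside the naming rule did not pass the test, with Rpsa at 1016 and 1118 against 880.2 and 874 FPKM and Rack1 at 469 and 534 against 496 and 497 FPKM. None of 10 genes listed with the elongation and termination factors, Tpt1 and Eef1e1 among them, passed, and their median difference was -0.10. Eef1a1, which delivers aminoacyl-tRNA to the ribosome, was 3765 and 4127 against 3273 and 3395 FPKM. Of 29 initiation factors 2 rose and 4 fell (6.90% and 13.8%, near the 6.23% and 15.8% of all genes). Eif6, which keeps the 60S subunit from joining and takes part in its maturation, rose from 64.7 and 69.1 to 131 in both knockouts (0.96 ± 0.08, adjusted p = 0.0012). Within the eIF3 complex Eif3c rose from 66.4 and 69.1 to 103 and 97.0 FPKM, while Eif3e fell from 53.0 and 60.4 to 42.4 and 44.1 FPKM (adjusted p = 0.0068 and 0.036). With equal medians 3 of the 29 rose and none fell, where 10.1% of all genes rose and 6.49% fell. The 3 were Eif6, Eif3c and Eif3b, and Eif3b passed on that scaling only (adjusted p = 0.040, against 0.23 without it).

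Among 49 ribosome biogenesis genes 1 rose and 3 fell (2.04% and 6.12%, against 6.23% and 15.8% of all genes), with a median difference of -0.02. Rrp12, which exports pre-ribosomal particles, rose from 13.7 and 12.1 to 19.95 and 19.4 FPKM (adjusted p = 0.012). Ubtf, the RNA polymerase I factor, fell from 43.9 and 47.5 to 32.01 and 27.6 FPKM, and Tcof1 from 20.9 and 21.1 to 13.8 and 15.8 FPKM (adjusted p = 0.011 and 0.021). With equal medians 8 of the 49 rose and 1, Ubtf, fell, where 10.1% of all genes rose and 6.49% fell. Genes named for the mitochondrial ribosome (Mrps or Mrpl and a number), another set of nuclear genes, had a median of -0.25. Of these 78, 15 fell (19.2%, against 15.8% of all genes) and none rose. They were taken by name, so the list can hold genes that encode no ribosomal protein. Mrps36 was the lowest in the list, with 4.86 and 4.80 against 2.78 and 2.85 FPKM (-0.61 ± 0.12, adjusted p = 0.018). With equal medians 0 of the 78 passed.

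Of 13 genes for ribosomal stress and quality control, 1 rose (7.69%, against 6.23% of all genes) and none fell. That gene was Hbs1l, which encodes a ribosome rescue factor and, in a short isoform, the bridge between SKI complex and exosome, with 24.1 FPKM in both controls and 36.7 and 37.4 in the knockouts (0.60 ± 0.08, adjusted p = 0.0050). Of 11 genes for TOP mRNA binding and mTORC1 outputs, 1 rose and 1 fell (9.09% each, against 6.23% and 15.8% of all genes). Eif4ebp1, a repressor of cap-dependent translation, rose from 9.23 and 8.10 to 29.6 and 33.03 FPKM (1.74 ± 0.11, adjusted p = 0.00047). Mycn fell, with 9.74 and 20.4 FPKM in the controls, which differed widely, and 5.48 and 5.46 in the knockouts (-1.23 ± 0.30, adjusted p = 0.035). With equal medians Hbs1l and Eif4ebp1 still rose, where 10.1% of all genes rose, and Mycn did not pass. Mdm2, at 17.6 and 17.04 against 20.04 and 22.1 FPKM, and Tcf25, at 80.7 and 85.5 against 91.6 and 88.5, also passed on that scaling (adjusted p = 0.032 and 0.049, against 0.090 and 0.34 without it), and so did Rps6kb2. Larp1, which binds the tract itself, was 45.2 and 44.7 against 47.3 and 44.8 FPKM, and Mtor 14.5 and 13.8 against 13.2 and 12.9 FPKM.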

How the data were processed

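Epidermal RNA of 4 newborn mice, 2 per genotype, had been sequenced as total RNA. FPKM values were deposited by the authors, 1 table per library, as fragments adjusted to the length of the transcript and the size of the library. TPM values, deposited by the authors beside them, sum to the same total in every library. Coverage, a signal also deposited by the authors, gives the mean depth per base, and its ratio to FPKM, equal within a tolerance of 0.001 over at least 3113 genes of each library, was 6.09 and 6.27 in control and 5.84 and 5.93 in knockout libraries. Read counts were not used, counting intervals are therefore absent, and the number of pups limits the precision. The aligner and the treatment of reads that match several genes are not given in the sources used here. The genome build is GRCm38 per the labels.

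FPKM of repeated gene identifiers were summed. All 19572 genes above 0.5 FPKM in at least 1 library were tested together on log2(FPKM + 1), a scale with a pseudocount of 1, by limma 3.58.1 under R 4.3.3 (eBayes with a trend, two-sided, Benjamini-Hochberg adjustment over all of them); called means an adjusted p under 0.05, and fold changes of low genes are understated on this scale. The fit was tested on simulated data. Sums, shares and exact permutation tests were computed in Python 3.11.15 with scipy 1.17.1, and figures drawn with matplotlib 3.10.9. Gene types, transcripts and neighbours come from GENCODE M21 and start windows from RefSeq.

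The members and all lists were chosen with earlier results of these data known. Genes were named by a rule: Rps3a1 and Rps3a3; the 5 most abundant ribosomal protein genes; up to 6 called in each direction without overlap, by size; 8 well-known genes (Rps6, Rps19, Rpl5, Rpl11, Rplp0, Rpl13a, Rps18, Rpl38); the named paralogs; the 6 most abundant pseudogenes and up to 4 called in each direction; the members at the threshold; Skiv2l; and up to 3 called genes of each list. Rps13, Rps15a, Rpl41, Rplp1, Rplp2 and uncalled genes of the other lists were named with their values in view. The alternatives tried were another pseudocount, other filters, scalings and models, the replicate block, leaving out each library and, added after the data were seen, classes by annotated gene type and other sums for the Rps3a copies.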

Additional observations from a re-analysis of the deposited data

How the results depend on the processing

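With 2 pups per genotype the calls among ribosomal protein genes were fragile. The fit called 8 of the 86 lower. Of all 19572 genes tested, 3090 fell in that fit, 3723 on the TPM scale and 2402 without the trend. The count among ribosomal protein genes was 0 with no filter, 15 on the TPM scale (all 8 kept) and 0 with median scaling. It was 32 with quantile normalization (6 of the 8 kept, Rps27l and Rps4l lost) and 1 without the trend. Without 1 library it was 0 to 3, with at most 2 of the 8 kept. The cause of each change was not tested. No ribosomal protein gene rose under any of the 14 alternatives. Pseudogenes that rose numbered 5 with median scaling, and those that fell numbered 0 with no filter, with coding and other genes fitted apart and with median scaling and 1 without the trend, and 0 to 2 with 1 library left out. All genes that rose numbered 590 with no filter and 1974 with median scaling, and 245 to 1067 without 1 library; those that fell numbered 993, 1270 and, with quantile normalization, 1799, and 186 to 2627 without 1 library. The median difference of the ribosomal protein genes was 0.023 with median scaling and -0.28 with quantile normalization (-0.24 to -0.12 without 1 library), and that of the pseudogenes 0.13 and 0.069 (-0.14 to -0.033 without 1 library). Without the 100 highest other genes the difference in share was -0.627 percentage points for ribosomal protein genes and 0.0410 for pseudogenes.

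Whether pups with the same replicate number were paired is not known. Deviations of same-numbered samples had a correlation of -0.029 over the genes tested, and this single value cannot exclude a pairing. Among the 86 ribosomal protein genes, the second pup was above the first for 78 in the controls and 75 in the knockouts. With the replicate block, 10 ribosomal protein genes fell (Rps21 and Rps28 added) and 0 rose, and among pseudogenes 3 rose and 4 fell. Of all 19572 genes tested, 3117 fell and 1315 rose with that block. Over 43 named genes, 0 values that were called in either fit changed sign under an alternative, 120 lost a call and 8 gained one. No counts were used, so how far sequencing depth limits the values of low genes was not tested. Signal per gene was far above the threshold for the ribosomal protein genes and near it for many pseudogenes.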
